A study of Mus musculus with 16 samples.

Results

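Expression of 10 genes of the p53 pathway and of BCL2-family apoptosis was examined in the neonatal mouse cochlea after loss of Lgr5+ supporting cells. The genes were Trp53, Mdm2, Bbc3, Pmaip1, Bax, Bcl2l11, Ccng1, Phlda3, Gdf15 and Trp53inp1. They were taken by gene symbol, and all 10 were found among the 47729 genes with values. After damage, 8 of the 10 were higher in ribosome-bound RNA and in whole-tissue RNA. Of all tested genes, 8.44% and 7.17% were called higher there. Among the 8, Gdf15 and Pmaip1 entered the test only through the libraries after damage and so had to differ. Bcl2l11 and Trp53inp1 did not pass the test in either kind of RNA. When libraries were paired by replicate number, Bcl2l11 was lower in ribosome-bound RNA (LFC, the log2 fold change, of -0.40, adjusted p = 0.026). That was the only 1 of 26 alternative settings in which Bcl2l11 passed there, with adjusted p up to 0.55 in the others. Pairing control with DTR libraries by number is an assumption.

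RNA sequencing covered 16 libraries from cochleae at postnatal day (P) 4, 4 in each of 4 groups (input and IP of control and of DTR mice), and each replicate was a pool of cochleae from several mice. Control mice were GLAST-CreERT/+; Rpl22-HA/+ and DTR mice were Lgr5-DTR/+; GLAST-CreERT/+; Rpl22-HA/+, so every library came from mice with the Cre and the taggable ribosomal protein. In these RiboTag mice, cells in which tamoxifen has activated the GLAST-driven Cre, among them cells of the greater epithelial ridge, carry an HA tag on Rpl22, and an anti-HA antibody then precipitates their ribosomes (IP). From each homogenate 95% was used for the IP and 5% was set aside as input, after the lateral wall, the spiral ganglia and Reissner's membrane had been taken off. Lgr5-DTR is a knock-in in which the Lgr5 gene drives the diphtheria toxin (DT) receptor, so DT kills Lgr5+ cells. By the methods, mice of both genotypes were given tamoxifen and DT at P1, whereas the labels give no treatment for control and "DTR treated" for DTR. DTR mice also carried an altered Lgr5 allele that the controls lacked, and that allele and the cell loss cannot be told apart.

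The transcription factor p53, encoded by Trp53, is stabilised by DNA damage and other stress and switches on genes that arrest the cell cycle, repair DNA or start apoptosis. Mdm2, itself a p53 target, is the ubiquitin ligase that returns p53 to low levels. The BH3-only proteins PUMA (Bbc3), NOXA (Pmaip1) and BIM (Bcl2l11) neutralise anti-apoptotic relatives of BCL2, after which BAX opens the outer mitochondrial membrane. In the cochlea the pathway is best known from hair cell death caused by cisplatin and aminoglycosides.

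Between 28089836 and 41966310 reads were counted on genes per library, and 3 reads corresponded to 0.0715 to 0.107 CPM, reads scaled to a common library total. The summed CPM of 8 supporting cell markers, among them Sox2, Lgr5 and Hes5, was 910 to 1040 in control IP and 200 to 337 in DTR IP, and 672 to 747 in control input and 242 to 339 in DTR input, with 7 of the 8 lower after damage in each. Summed CPM of 9 macrophage markers went the other way, at most 25.1 in control IP against at least 41.7 in DTR IP, and at most 106 in control input against at least 140 in DTR input, with 6 of the 9 higher in each. Hair cell markers summed to 164 to 236 CPM in IP of controls and to 237 to 278 CPM in IP of DTR mice, where 3 of 7 were higher and 1 (Atoh1) was lower. Schwann cell markers were lower, 2 of 5 in IP and 4 of 5 in input. Of 5 mesenchyme and 4 endothelium markers, 2 and 1 were higher in IP and none passed in input, and none of 5 neuron markers passed in either. The GLAST gene itself, Slc1a3, did not pass the test in DTR against control (LFC of -0.11 in IP and -0.04 in input), and no marker was at 0 in all libraries of a group. Compared with input, Slc1a3 was not higher in IP. Its LFC was -0.197 in control, which did not pass, and -0.265 in DTR, where it was called lower. In bulk libraries, fewer cells of a type and less RNA per cell cannot be told apart, and the part of these shifts in the results below was not tested.

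Comparing DTR with control addresses which of these genes changed when supporting cells were lost. In IP, 8 of the 10 genes passed the test (limma, adjusted p under 0.05) and all 8 were higher in DTR, where 8.44% of the 16994 tested genes were called higher and 7.30% lower. In input the same 8 genes were higher, with 7.17% of tested genes called higher and 5.21% lower. Gdf15 and Pmaip1 entered the test only through the DTR libraries, where they reached 0.5 CPM, and so had to differ. Of the other 8 genes, which reached that level in all 4 groups, 6 rose in IP and in input. The median LFC of the 10 genes was 0.83 in IP and 0.96 in input, against medians over all tested genes of -0.0043 and -0.021. Gdf15 and Pmaip1, which had to differ, are included in these medians and in the separation counts below. All LFC are on the log2(normalized CPM + 0.5) scale, which understates the change of low genes. The lowest DTR library was above the highest control library for all 8 in input and for 7 of the 8 in IP, with Mdm2 the exception, where 11.6% and 10.5% of all tested genes were separated in this direction. With Gdf15 and Pmaip1 set aside, Trp53, Bbc3, Bax, Ccng1 and Phlda3 were separated in both and Mdm2 in input only.

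**Figure D1:**
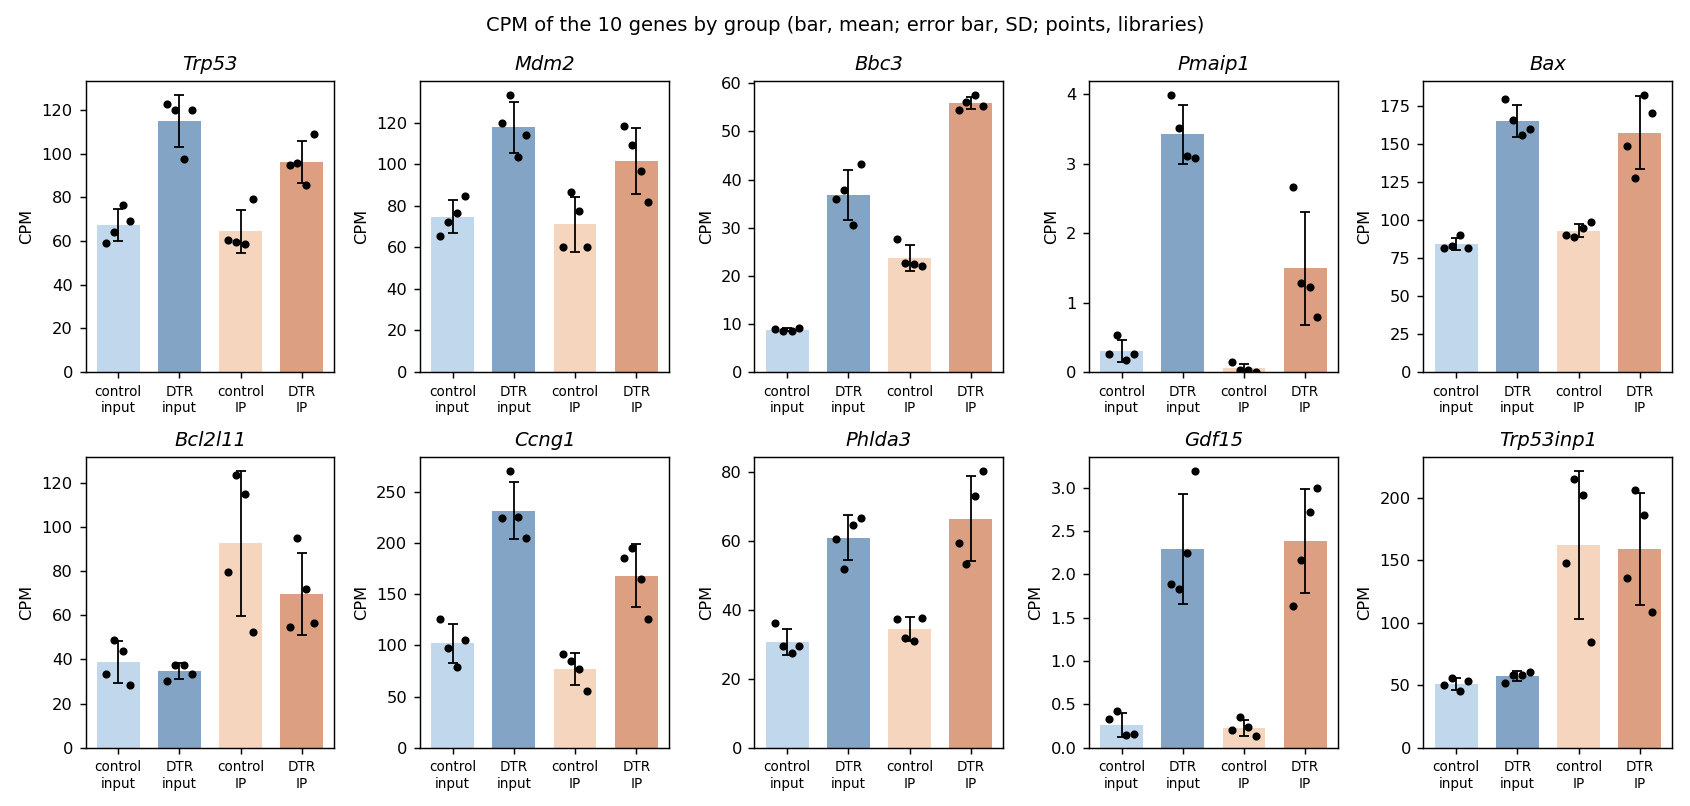
CPM of the 10 genes in control input, DTR input, control IP and DTR IP. Bars are means, error bars SD and points the 4 libraries of each group. In 8 panels the DTR bars stand above their controls, while Bcl2l11 and Trp53inp1 differ mainly between IP and input.

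RefSeq promoter windows (GRCm38.p6, 250 bases before the transcription start) were available for 8 of the 10 genes, and they are shown because most of these genes are known p53 targets. Windows of Pmaip1 and Trp53inp1 were not used here. The windows were searched on both strands for the p53 decamer, the unit that is repeated in a p53 response element, by its published consensus. It was found in 4 of the 12 windows of these 8 genes, those of Bax, Mdm2, Ccng1 and Trp53, and in 7.13% of 32851 promoter windows genome-wide. In Ccng1 it was the second decamer of an adjoining pair with 1 mismatch, an arrangement found in 19 windows in all (0.0578%). Capitals mark the decamer, or in Ccng1 the pair, with 30 bases on each side, written 5′ to 3′ on the strand of the gene. Bax lies on the minus strand (chr7:45467060-45467129), Mdm2 on the minus strand (chr10:117710905-117710974), Ccng1 on the minus strand (chr11:40755432-40755511) and Trp53 on the plus strand (chr11:69580254-69580323).
Bax: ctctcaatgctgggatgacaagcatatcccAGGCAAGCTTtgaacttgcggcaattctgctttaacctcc
Mdm2: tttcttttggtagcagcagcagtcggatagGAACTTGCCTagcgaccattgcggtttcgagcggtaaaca
Ccng1: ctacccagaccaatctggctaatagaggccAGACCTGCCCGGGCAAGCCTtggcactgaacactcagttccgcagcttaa
Trp53: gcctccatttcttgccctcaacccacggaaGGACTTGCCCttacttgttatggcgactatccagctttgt
The capitals began 201 bases before the start in Bax, 186 in Mdm2, 195 in Ccng1 and 75 in Trp53. No decamer was found in the windows of Bbc3, Gdf15, Phlda3 and Bcl2l11, which says only that these letters are not there. A match likewise says only that the letters are there. Most of the genes were chosen as known p53 targets, so their share of windows is not an independent result. Whether p53 bound these sites, or had a part in the rises described here, was not tested.

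Trp53 (ENSMUSG00000059552, chr11:69580359-69591873 in GRCm38) was expressed in every library. In input it was at 59.3, 64.1, 76.5 and 69.4 CPM in control replicates 1 to 4 and at 123, 120, 97.6 and 120 CPM in DTR. IP libraries were at 60.4, 59.7, 58.5 and 79.3 CPM in control and at 95.0, 95.6, 85.9 and 109 CPM in DTR. Every DTR library was above every control library of its kind, although DTR input replicate 3 was low and control IP replicate 4 was high within their groups. The transcript rose by an LFC of 0.76 ± 0.13 in input (adjusted p = 0.00041) and 0.57 ± 0.13 in IP (adjusted p = 0.0043). Here and below, ± beside an LFC is the SE of the limma fit, whose spread is estimated over all 16 libraries, 4 in each group.

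Mdm2 (ENSMUSG00000020184, chr10:117688875-117710758), the ligase that degrades p53, was at 65.6, 72.3, 76.5 and 84.6 CPM in control input and at 120, 133, 104 and 114 CPM in DTR input. IP libraries held 60.2, 86.4, 77.4 and 60.0 CPM in control and at 118, 109, 96.5 and 81.6 CPM in DTR. The input groups were apart, while in IP the lowest DTR library lay below the highest control library, and DTR was higher in all 4 pairs of libraries with the same number. The rise was an LFC of 0.64 ± 0.13 in input (adjusted p = 0.0016) and 0.51 ± 0.13 in IP (adjusted p = 0.0092), among the smaller of the 8.

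Because Mdm2 is both a target and the inhibitor of p53, its ratio to Trp53 was compared within libraries. The mean log2 ratio of Mdm2 to Trp53 was 0.13 ± 0.42 (SD, n = 4) in control IP and 0.07 ± 0.33 in DTR IP. The difference was -0.07 (exact permutation test, two-sided, p = 0.743), and in input it was -0.12 (p = 0.171), with 0.029 the smallest p that 4 against 4 libraries allow. The IP difference was far smaller than the SD of either group, and the input groups overlapped. Mdm4, the partner of Mdm2 in restraining p53, did not pass in IP (88.8 ± 28.5 CPM in control, 108 ± 22.0 CPM in DTR, LFC of 0.30, adjusted p = 0.30) or in input (LFC of 0.12, adjusted p = 0.76).

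Bbc3 (ENSMUSG00000002083, chr7:16308393-16318205) encodes PUMA, a principal killer among p53 targets. Input levels were 8.96, 8.59, 8.44 and 9.19 CPM in control and 36.0, 37.8, 30.5 and 43.1 CPM in DTR. IP levels were 27.7, 22.7, 22.4 and 22.1 CPM in control and 54.5, 56.2, 57.6 and 55.3 CPM in DTR. The groups lay far apart in both, and the 4 DTR IP libraries were tightly grouped. Bbc3 rose by an LFC of 2.01 ± 0.11 in input, which is 4.03-fold (adjusted p = 5e-10), and by 1.19 ± 0.11 in IP, which is 2.28-fold (adjusted p = 5.5e-07).

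The rise of Bbc3 in IP was smaller than that in input by 0.82 ± 0.16 on the log2 scale (95% CI -1.16 to -0.48). This difference of differences did not pass over all genes (adjusted p = 0.12), where 2 of 16994 genes did (0.0118%), and it passed once pools of the same number were blocked (adjusted p = 0.041). For the other 9 genes the same difference lay between -0.49 and 0.13, each with an adjusted p of 1.0, and their confidence intervals reached from -1.12 to 0.77. None of the 10 genes was called for this difference by limma without the block or by edgeR, and DESeq2 called Bbc3 (adjusted p = 0.0014). Across all tested genes, 870 had an unadjusted p under 0.05, edgeR called 0 genes and DESeq2 called 49.

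Pmaip1 (ENSMUSG00000024521), the gene of NOXA, was close to the detection limit in control cochleae. In input it was at 0.262, 0.535, 0.169 and 0.259 CPM in control and at 3.99, 3.51, 3.12 and 3.08 CPM in DTR. In control IP only 5, 1, 1 and 0 reads fell on it, against 83, 36, 37 and 24 reads in DTR IP (2.67, 1.28, 1.23 and 0.789 CPM). A count of 0 in control IP replicate 4 allows up to 0.0981 CPM. Every DTR library was above every control library, and DTR IP replicate 1 was the highest of its group. Pooled over libraries and scaled to depth, DTR was 11.4 times control in input (95% interval 8.46 to 15.8, from 473 and 47 reads) and 28.4 times control in IP (13.5 to 71.7, from 180 and 7 reads), intervals that cover counting error only. The IP ratio hung on control IP replicate 1, which held 5 of the 7 control reads, and without it the ratio was 74.3 (20.3 to 619, from 180 and 2 reads). The fitted LFC was 2.15 ± 0.21 in input (adjusted p = 9.1e-07) and 1.66 ± 0.21 in IP (adjusted p = 2e-05).

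Bax (ENSMUSG00000003873, chr7:45461697-45466898), the pore-forming effector, was at 81.6, 82.9, 89.8 and 81.7 CPM in control input and at 180, 165, 156 and 159 CPM in DTR input. In the IP libraries it was at 90.0, 88.6, 94.9 and 98.5 CPM in control and at 149, 128, 182 and 170 CPM in DTR. Control libraries were tightly grouped, and all DTR libraries lay above them. Bax rose by an LFC of 0.97 ± 0.11 in input (1.96-fold, adjusted p = 4.7e-06) and 0.75 ± 0.11 in IP (1.68-fold, adjusted p = 8.8e-05). GENCODE M21 places Gm45808 over Bax on the same strand, and reads of the 2 could not be told apart.

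BCL2 holds BAX in check, and the log2 ratio of Bax to Bcl2 was therefore followed in each library. In input it was -0.84, -1.07, -0.78 and -0.92 in control and 0.05, -0.10, -0.24 and 0.17 in DTR. In IP it was -1.27, -1.52, -1.34 and -0.84 in control and -0.76, -1.05, -0.57 and -0.22 in DTR. The input groups were apart and the IP groups overlapped, with DTR higher in all 4 numbered pairs of each. The difference was 0.88 in input (exact permutation test, p = 0.0286) and 0.59 in IP (p = 0.0571), and after adjustment over the 4 ratio tests both had p = 0.114. The input p was the smallest that 4 against 4 libraries allow, and alone it could not pass after adjustment over 4 tests. Bcl2 itself did not pass (LFC of 0.11 in input and 0.18 in IP, adjusted p = 0.69 and 0.36).

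Bcl2l11 (ENSMUSG00000027381, chr2:128126038-128162547), the gene of BIM, is a BH3-only gene mainly known as a target of FOXO factors. In input it was at 33.6, 49.0, 43.9 and 28.4 CPM in control and at 30.1, 37.4, 37.5 and 33.6 CPM in DTR. In IP it was at 79.7, 124, 115 and 52.3 CPM in control and at 54.9, 95.1, 72.0 and 56.4 CPM in DTR. The groups overlapped in both, and replicates 2 and 3 were the highest in every group. Its LFC was -0.15 ± 0.23 in input (95% CI -0.63 to 0.34, adjusted p = 0.78) and -0.40 ± 0.23 in IP (95% CI -0.88 to 0.08, adjusted p = 0.27). DTR was lower in 3 of 4 numbered IP pairs, and a block for the replicate number brought the IP difference past the test (adjusted p = 0.026).

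**Figure D2:**
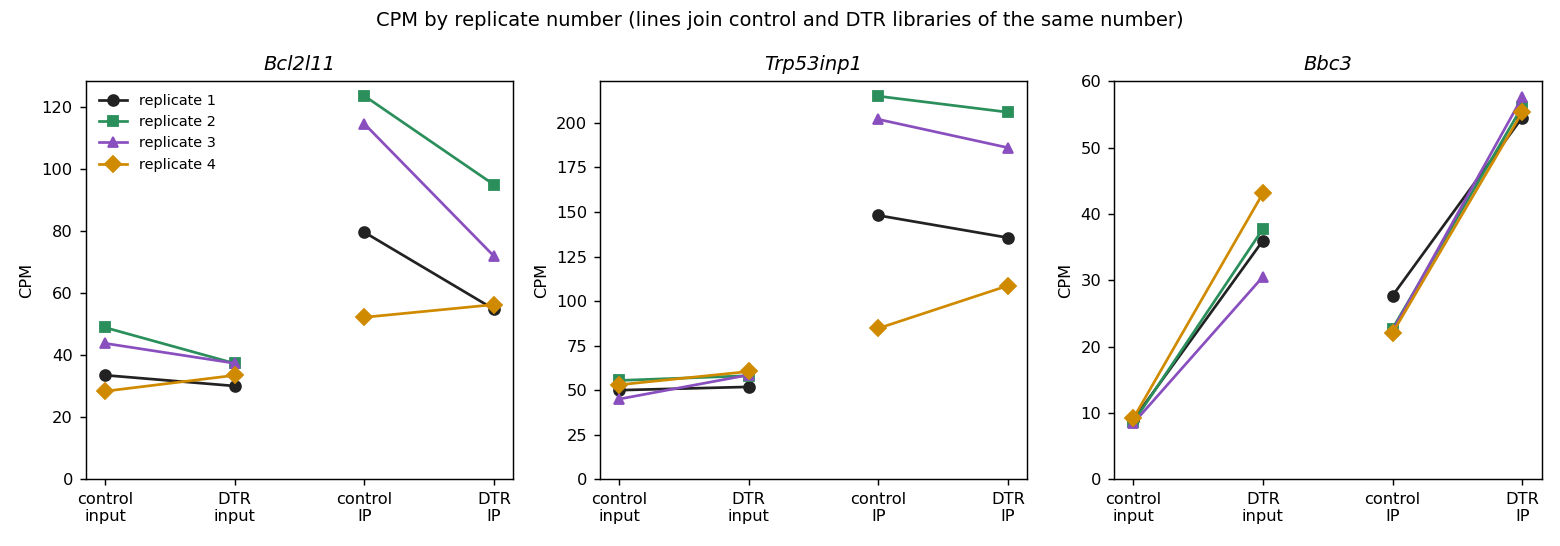
CPM of Bcl2l11, Trp53inp1 and Bbc3 by group, with lines joining control and DTR libraries that carry the same replicate number. For Bcl2l11 the IP lines fall in 3 of 4 replicates, from 124 to 95.1 CPM in replicate 2, while all 8 lines of Bbc3 rise.

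Ccng1 (ENSMUSG00000020326, chr11:40748552-40755311) encodes cyclin G1, a p53 target that acts in feedback with Mdm2. Input levels were 126, 97.7, 79.4 and 105 CPM in control and 224, 271, 226 and 205 CPM in DTR, and IP levels were 91.8, 84.6, 76.7 and 55.3 CPM in control and 186, 196, 165 and 126 CPM in DTR. No DTR library reached down to a control library of its kind, and replicate 4 was the lowest in both IP groups. Ccng1 rose by 1.18 ± 0.15 in input (2.27-fold, adjusted p = 2.1e-05) and 1.15 ± 0.15 in IP (2.22-fold, adjusted p = 2.8e-05).

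Phlda3 (ENSMUSG00000041801, chr1:135766119-135769136) encodes an inhibitor of AKT signalling induced by p53. It was at 36.2, 29.4, 27.6 and 29.4 CPM in control input and 60.6, 51.8, 64.4 and 66.6 CPM in DTR input. IP levels were 37.4, 31.9, 30.8 and 37.7 CPM in control and 59.4, 53.2, 72.9 and 80.3 CPM in DTR. DTR libraries were all above control, with the DTR IP libraries the most spread. The LFC was 0.95 ± 0.15 in input (adjusted p = 0.00016) and 0.91 ± 0.15 in IP (adjusted p = 0.00022).

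Gdf15 (ENSMUSG00000038508, chr8:70629393-70632456) encodes a secreted stress cytokine that is induced by p53 and by the integrated stress response. In input it was at 0.334, 0.422, 0.145 and 0.155 CPM in control and 1.89, 1.83, 2.25 and 3.20 CPM in DTR. The IP levels were 0.209, 0.349, 0.235 and 0.131 CPM in control and 1.64, 2.17, 2.72 and 2.99 CPM in DTR. Control libraries held between 4 and 15 reads and DTR libraries between 51 and 105, with no overlap. Pooled reads gave ratios of 8.78 in input (95% interval 6.33 to 12.5, 317 against 41 reads) and 10.2 in IP (7 to 15.2, 285 against 31 reads). The fitted LFC was 1.73 ± 0.22 in input (adjusted p = 1.5e-05) and 1.86 ± 0.22 in IP (adjusted p = 6.2e-06).

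Trp53inp1 (ENSMUSG00000028211, chr4:11156431-11174379) encodes a stress-induced nuclear protein that promotes p53 activity and autophagy. In input it was at 50.1, 55.5, 45.1 and 53.1 CPM in control and 51.9, 58.2, 58.6 and 60.5 CPM in DTR. In IP it was at 148, 215, 202 and 84.8 CPM in control and 136, 206, 186 and 109 CPM in DTR. The groups overlapped, and replicate 4 was the lowest in both IP groups, as for Bcl2l11 in control IP. Its LFC was 0.15 ± 0.22 in input (95% CI -0.31 to 0.62, adjusted p = 0.76) and 0.02 ± 0.22 in IP (95% CI -0.45 to 0.48, adjusted p = 0.98), the latter turning to -0.09 with edgeR and DESeq2.

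**Figure D3:**
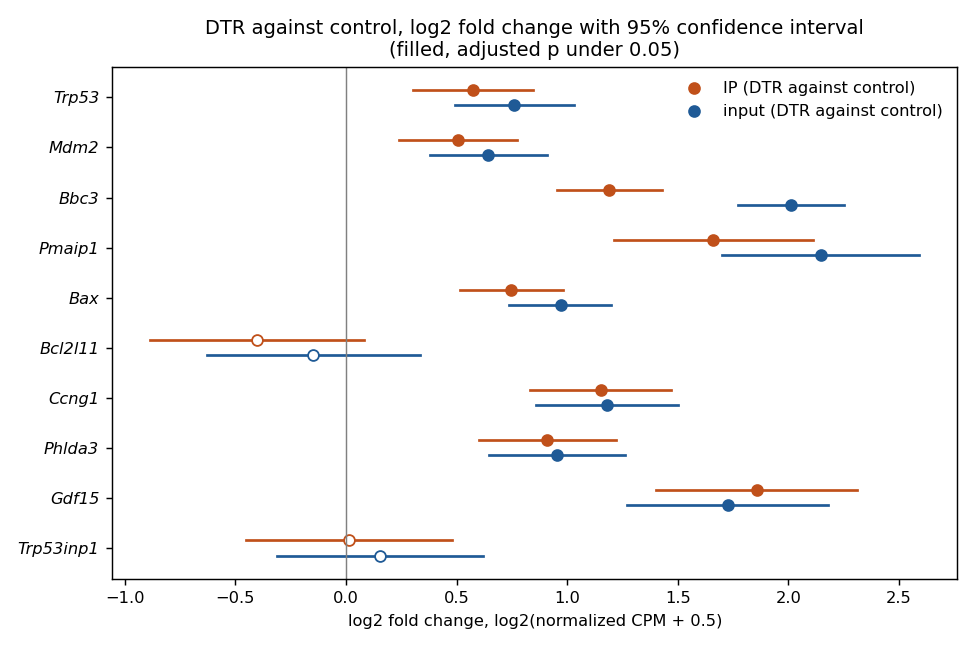
Log2 fold change of DTR against control for the 10 genes in IP and in input, with 95% confidence intervals (filled points, adjusted p under 0.05). Intervals of 8 genes lie above 0 in both, and those of Bcl2l11 and Trp53inp1 include 0. The IP and input intervals of Bbc3 do not meet.

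A stricter call also asked for an absolute LFC of at least 1 and a separation above 1.5, that is, the lowest library of the higher group divided by the highest of the other, with a floor of 1.08 CPM. In input, Bbc3 and Ccng1 met all criteria, as did Pmaip1 and Gdf15, which had to differ to enter the test, where 2.33% of tested genes did in either direction and 1.34% were higher. In IP only Bbc3 did, where 2.46% did in either direction and 1.12% were higher, and without the separation criterion the other 3 were called as well. Pmaip1 was at 0.789 CPM in DTR IP replicate 4, under the floor. It therefore could not pass the separation in IP, although its groups did not overlap. Trp53, Mdm2, Bax and Phlda3 rose by less than an LFC of 1 in both.

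IP was next compared with input to see which of the transcripts were over- or under-represented in the IP of GLAST-Cre+ cells. Before their cluster analysis the authors corrected IP samples for an effect of gene length, and the scaling used here did not. Exon length was 6475 bases in Trp53inp1, 8029 in Bcl2l11, 2124 in Bbc3, 2732 in Pmaip1 and 3512 in Ccng1. The part of gene length in the differences below was not tested. In control cochleae Trp53inp1, Bbc3 and Bcl2l11 were higher in IP and Pmaip1 was lower, where 39.9% of tested genes were called, 19.3% higher and 20.7% lower. Trp53inp1 had an LFC of 1.58 ± 0.22 (adjusted p = 1.6e-05), Bbc3 of 1.39 ± 0.11 (adjusted p = 3.2e-08) and Bcl2l11 of 1.19 ± 0.23 (adjusted p = 0.00042). Every IP library of the 3 genes was above every input library, and the share of all tested genes separated in this way was not counted. Pmaip1 was lower by 0.58 ± 0.21 on the log2 scale (adjusted p = 0.037), from 7 reads in IP and 47 in input. That call was lost without control input replicate 1, 2 or 4 or control IP replicate 2, 3 or 4 (adjusted p up to 0.11). Ccng1 was lower in all 4 pools, with an LFC of -0.39 ± 0.15 that did not pass (adjusted p = 0.053) and did with the pools as a block (adjusted p = 0.012).

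After damage the same 3 genes remained higher in IP than in input, where 39.2% of tested genes were called, 18.6% higher and 20.5% lower. The LFC was 1.45 ± 0.22 for Trp53inp1 (adjusted p = 5.2e-05), 0.94 ± 0.23 for Bcl2l11 (adjusted p = 0.0033) and 0.57 ± 0.11 for Bbc3 (adjusted p = 0.00066). Pmaip1 was lower in IP by 1.07 ± 0.21 (adjusted p = 0.00063) and Ccng1 by 0.42 ± 0.15 (adjusted p = 0.038). The Ccng1 call was lost without DTR input replicate 1, 2 or 3 or DTR IP replicate 3 or 4 (adjusted p up to 0.14). Trp53, Mdm2, Bax, Phlda3 and Gdf15 did not pass in either comparison, with LFC between -0.25 and 0.17. The 4 comparisons share libraries in pairs, so a high control IP value enters 2 of them. In both IP-to-input comparisons macrophage markers were lower in IP, 9 of 9 in control and 8 of 9 in DTR, and endothelium markers 4 of 4 in both. Schwann cell markers were lower in 4 of 5 in both. Of 7 hair cell markers, 6 were lower in control and 5 in DTR, with Atoh1 higher in both. Of 5 mesenchyme markers, 3 were lower in control and 1 in DTR, where Pou3f4 was higher. Of 5 neuron markers, 2 and 1 were lower. Of 8 supporting cell markers, 4 were higher and 2 lower in control, and 2 higher and 1 lower in DTR. Whether RNA of any of these cell types carried part of the Pmaip1 and Ccng1 difference was not tested.

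Per kilobase of exon, Bax was the most abundant of the 10 in every group, at 53.3 ± 2.48 CPM per kb in control input and 105 ± 6.71 in DTR input. In control input it was followed by Ccng1 (29.1 CPM per kb), Phlda3 (19.7), Trp53 (16.6) and Mdm2 (14.7), whose libraries overlapped from each to the next. Trp53inp1 (7.87), Bcl2l11 (4.82) and Bbc3 (4.14) came lower, the last 2 with overlap, and Gdf15 (0.143) and Pmaip1 (0.112) were at the bottom and overlapped. Between control and DTR of the same fraction, Bbc3 changed its place most. It stood 8th in control input and 6th in DTR input, and 8th in control IP and 4th in DTR IP, where its 26.3 CPM per kb overlapped with Trp53inp1 (24.6). Trp53inp1 in turn overlapped with Trp53 (23.8) there. In control IP the genes from 2nd to 8th place overlapped from each to the next, so the IP places of Bbc3 rest on means.

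Genes that act beside these 10 were taken from lists by function. Among 32 other p53 target genes, 11 were higher and 2 lower in DTR IP, with a median LFC of 0.13, where 8.44% of all tested genes were higher and 7.30% lower. In DTR input 12 were higher and 1 lower, with a median of 0.18, where 7.17% were higher and 5.21% lower. Eda2r, a TNF-receptor family member induced by p53, had the largest change of the list. It went from 0.750 ± 0.393 to 38.2 ± 14.7 CPM in IP (LFC of 4.82, adjusted p = 2.1e-10) and from 0.347 ± 0.173 to 28.8 ± 4.55 CPM in input (LFC of 5.06, adjusted p = 9.1e-11), and it entered the test only through the DTR groups. Psrc1, a microtubule-associated gene regulated by p53, rose by 2.63 in IP and 1.84 in input (adjusted p = 5.9e-08 and 5.9e-06). Pidd1, the scaffold of the caspase-2-activating PIDDosome, rose by 1.27 in input (adjusted p = 5.4e-05). In IP it rose by 0.54 (adjusted p = 0.048), a call lost in 12 of 16 fits that left out a single library (adjusted p of 0.039 to 0.13).

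Cdkn1a, the p21 cell-cycle inhibitor and textbook p53 target, was already at 206 ± 15.7 CPM in control input and reached 290 ± 26.9 CPM in DTR input (LFC of 0.48 ± 0.11, adjusted p = 0.0044). In IP it was at 323 ± 30.8 and 389 ± 48 CPM with overlapping groups (LFC of 0.32, adjusted p = 0.048), and that call was lost in 13 of 16 single-library omissions and with edgeR (adjusted p = 0.31). Sfn, encoding 14-3-3σ, fell by 1.76 in IP (adjusted p = 0.0007) and by 1.26 in input (adjusted p = 0.012, and 0.05 without control input replicate 3). Btg2, an antiproliferative gene, fell by 0.80 in IP (449 ± 128 to 251 ± 23.2 CPM, adjusted p = 0.0072) and had an LFC of -0.02 in input (adjusted p = 0.96). With the replicate block, 4 targets were lower in IP, Ei24 and Perp in addition, and 13 were higher, Fas and Zmat3 in addition. Without a block, edgeR called Ei24 in IP too, and DESeq2 called Ei24, Perp and Fas. The remaining called targets (Ephx1, Aen, Plk3, Ercc5, Plk2, Tnfrsf10b and Slc19a2 in both, Zmat3 in input) rose, of which Slc19a2 in IP (adjusted p = 0.045) was not called by edgeR. The count of 11 in IP was 7 without control IP replicate 1, 3 or 4 or DTR IP replicate 2 or 4.

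Of 16 tested regulators and relatives of p53, 5 were higher and 0 lower in DTR IP (median LFC 0.25), beside 8.44% higher over all tested genes, and 4 were higher and 0 lower in DTR input (median LFC 0.14), beside 7.17%. Chek1, a DNA damage checkpoint kinase that also works in every S phase, rose from 1.57 ± 0.569 to 4.52 ± 0.724 CPM in IP (LFC of 1.18, adjusted p = 0.00025) and by 1.12 in input (adjusted p = 0.00048). The acetyltransferases Crebbp and Ep300 rose by 0.54 each in IP (adjusted p = 0.0031 and 0.0082) and by 0.51 and 0.56 in input (adjusted p = 0.0053 and 0.0073). Trp53bp1, a mediator of double-strand break repair, rose by 0.68 in IP (adjusted p = 0.013, and at most 0.052 without DTR IP replicate 1 or control IP replicate 3) and was at an LFC of 0.38 in input (adjusted p = 0.20, and 0.049 without DTR input replicate 3). Rchy1, a further p53 ubiquitin ligase, rose by 0.36 in input (adjusted p = 0.036), a call lost without replicate 1, 2 or 3 of either input group (adjusted p up to 0.12). Usp7 was the fifth gene called in IP, and without DTR IP replicate 1 the list's count was 3.

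The next lists hold the apoptosis machinery outside the 10 genes, and their counts stand beside 15.7% of all tested genes called in IP and 12.4% in input, in either direction. Of 5 other BH3-only genes (Bad, Bid, Bik, Bmf and Hrk), 0 passed in IP with limma, edgeR or DESeq2 (0 at an unadjusted p under 0.05) and 1 was lower in input, Bmf, which went from 33.4 ± 5.64 to 18.5 ± 4.16 CPM (LFC of -0.87, adjusted p = 0.014, and 0.053 without control input replicate 1). Of the other pore-forming genes, Bak1 did not pass (LFC of 0.02 in IP and -0.23 in input). Bok rose in IP by 0.46 (adjusted p = 0.044, lost in 13 of 16 single-library omissions) and did not pass in input (LFC of 0.27, adjusted p = 0.30). Of the 4 tested anti-apoptotic genes, 0 passed in IP and in input with limma, edgeR or DESeq2, and 0 had an unadjusted p under 0.05 with limma, where edgeR and DESeq2 gave 1 in IP (Bcl2l1). Bcl2l1, the gene of BCL-XL, had an LFC of -0.13 in IP and -0.083 in input (adjusted p = 0.32 and 0.63), and Mcl1 of -0.03 and -0.06 (adjusted p = 0.89 and 0.85).

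Among 12 genes of caspases and the apoptosome, 0 passed in IP and 0 in input with limma, where 3 and 2 had an unadjusted p under 0.05. With edgeR 0 passed in either, and DESeq2 called 1 in each, Apaf1 in IP and Casp6 in input. The initiator Casp9 had an LFC of -0.20 in IP and -0.18 in input (adjusted p = 0.28 and 0.38). Apaf1, the core of the apoptosome and a p53 target, was at 10.7 ± 1.90 CPM in IP of controls and 16.7 ± 2.76 CPM after damage, without overlap (LFC of 0.55, adjusted p = 0.063), and had an LFC of 0.48 in input (adjusted p = 0.13). Without DTR input replicate 2 it passed in both (adjusted p = 0.032 and 0.022). Blocked by replicate number, Apaf1 passed in IP and in input (adjusted p = 0.017 and 0.044), and Casp6, an executioner caspase, was lower in input by 0.30 (adjusted p = 0.028). Birc3, an inhibitor of apoptosis protein of the NF-κB pathway, was the only one of 4 such genes to pass, rising by 0.83 in IP (adjusted p = 0.0017) and 1.45 in input (adjusted p = 5.4e-06).

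Of 8 tested death receptor genes, 1 was called, near the 15.7% and 12.4% of all tested genes called in IP and input. This was Tnfrsf10b, the mouse TRAIL receptor which is counted among the p53 targets too. It rose from 7.35 ± 0.447 to 11.5 ± 0.441 CPM in IP (LFC of 0.53, adjusted p = 0.029) and from 6.04 ± 1.02 to 10.1 ± 1.54 CPM in input (LFC of 0.67, adjusted p = 0.0077). The IP call was lost without control IP replicate 1 or 2 or DTR IP replicate 2 or 4 (adjusted p up to 0.074). Fas was added in IP with the replicate block and with DESeq2 (LFC of 0.52, adjusted p = 0.04). Of 9 genes of the integrated stress response, which also acts on Gdf15 and Bbc3, 4 were higher and 0 lower in each comparison, with list medians of -0.16 in IP and 0.40 in input, where 8.44% and 7.17% of all tested genes were higher. Atf3 rose by 2.55 in IP and 2.86 in input (adjusted p = 2e-07 and 4.4e-08), Atf4 by 1.01 and 1.18, and Ddit3 (CHOP) by 0.76 and 1.04. Ppp1r15a rose by 0.68 in input (adjusted p = 0.00031) and by 0.35 in IP (adjusted p = 0.037, lost without DTR IP replicate 1 or 2 or control IP replicate 1, 3 or 4, and with edgeR, DESeq2, either other scaling, no filter or the compared groups alone at 0.052 to 0.11). With the block, Asns was lower in IP by 0.55 (adjusted p = 0.01), and DESeq2 called Asns in IP without a block.

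**Figure D4:**
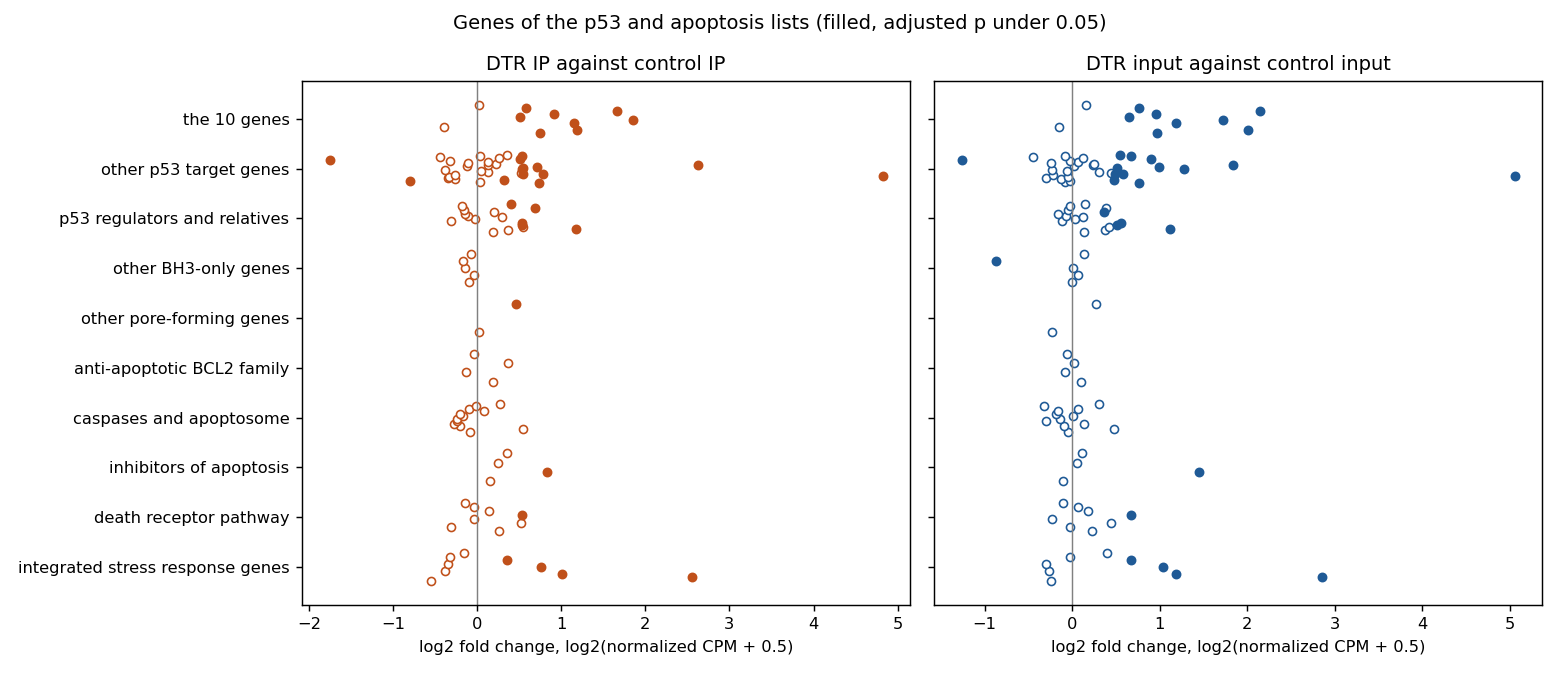
Log2 fold change of DTR against control in IP (left) and input (right) for each tested gene of the lists (filled points, adjusted p under 0.05). The 10 genes lie mostly to the right of 0, with medians of 0.83 and 0.96 that include Gdf15 and Pmaip1, which had to differ. Anti-apoptotic, caspase and other BH3-only genes lie around 0 with 1 call, Bmf in input. Eda2r is the point at about 5 on each side.

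Over the 16 libraries, the gene whose log2 profile was most like that of Mdm2 was Mynn (Pearson's r = 0.964), followed by Zfp426 (0.960) and 1110008L16Rik (0.945). Closest to Bbc3 was Slc7a7 (0.985), to Bax Gadd45g (0.972), to Trp53 Akt1s1 (0.966), to Ccng1 Gem (0.964) and to Phlda3 Gm42743 (0.946). Trp53inp1 was closest to Fam126b (0.988) and Bcl2l11 to Nhlrc3 (0.962). For the 2 low genes the closest were Spesp1 for Pmaip1 (0.963) and Gm8221 for Gdf15 (0.971). These values describe libraries that share pools and groups, and a shared difference between groups is enough to raise them.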

How the data were processed

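RNA sequencing data of 16 libraries were used. For each library the authors deposited a CPM value for every gene, that is reads counted on genes scaled to a library total of 1000000. Their methods name alignment to GRCm38 with HISAT2 and counting with HTSeq, the submitters' processing notes name TopHat, and the annotation release and strand setting are not given in the sources used here. Every deposited CPM was a whole multiple of 1 read within 0.01 read (100% of values, 99.996% in 1 library), so read counts were recovered for edgeR and DESeq2. Of 50316 genes listed, 2587 were NA throughout. The fourth replicate is numbered 6 in the file headers.

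CPM were quantile normalized and log2 transformed with a pseudocount of 0.5, keeping 16994 genes with at least 0.5 CPM in all 4 libraries of a group. A single limma fit (3.58.1, in R 4.3.3) with a mean-variance trend held the 16 libraries, and p-values were adjusted by Benjamini-Hochberg across the tested genes. Replicates are pools, so p-values measure the spread between libraries of a group, each from its own pool. This fit treated IP and input of the same pool as independent, so its p-values for IP against input and for the difference of changes ignore that pairing. A call is an adjusted p under 0.05. Ratios were compared by exact permutation. Alternatives were other scalings, pseudocounts (0.1 and 1), filters (none, 2 CPM), the compared groups alone, a replicate block, edgeR (4.0.16), DESeq2 (1.42.0) and each library left out. Before use, the fit was checked on simulated counts with known changes. IP and input of 1 number come from 1 homogenate by the methods, and for control and DTR the pairing comes from the labels' numbers. Same-number deviations from group means correlated at 0.288 to 0.56 in every pair, and different numbers at -0.368 to 0.29. Control IP replicate 4 correlated with control input replicate 3 at 0.2901 and with its own input at 0.2877. The numbers were taken to pair the samples, which is an assumption for control with DTR. Depth was 28089836 to 41966310 counted reads. Amplified reads are not independent molecules, so intervals cover counting error only.

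Named genes are the 10 genes, up to 4 called genes per list and comparison with the largest absolute LFC, direct partners (Mdm4, Cdkn1a, Bcl2, Bcl2l1, Mcl1, Bak1, Casp9 and Apaf1; 1 more is not reported here) and the closest genes by correlation (3 for Mdm2). Other list genes are named to complete small counts, after their values were seen. Members and lists were chosen with earlier results of these data known. Positions are from GENCODE M21 (GRCm38), promoters from RefSeq (GRCm38.p6). No protein sequences were used here.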

Additional observations from a re-analysis of the deposited data

Results flagged for a closer look

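Of 40 groups of 4 libraries (10 genes in 4 groups), 4 held a library that stood apart from the other 3 by Dixon's 95% limit, where chance gives about 1 group in 20. These were Bbc3 in control IP replicate 1 (27.7 CPM, the highest), Bax in control input replicate 3 (89.8 CPM, the highest), Trp53 in DTR input replicate 3 (97.6 CPM, the lowest) and Trp53 in control IP replicate 4 (79.3 CPM, the highest). Each of the 4 libraries lay on the side of its group that made the DTR-to-control difference smaller. Over the 26 alternatives, the LFC of Bbc3 in IP was 1.15 to 1.25, of Bax in input 0.94 to 1.01, and of Trp53 0.49 to 0.70 in IP and 0.70 to 0.83 in input, and all stayed called.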

How the results depend on the processing

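In DTR against control, the 8 genes were called higher in IP and in input under all 26 alternatives that kept them in the test. With the replicate block 1 of the 10 genes was called lower in IP (Bcl2l11), and without the separation criterion 4 genes met the stricter IP criteria. Genes called for the difference of changes numbered 2 in the reported fit, 1 without quantile normalization, 0 with a pseudocount of 0.1, without the filter or with edgeR, 40 with the block and 49 with DESeq2, and 0 to 6 with single libraries left out. Of the 10 genes, 1 was called lower there with the block and with DESeq2 (Bbc3). In control IP against input, 0 of the 10 were called lower without quantile normalization, with a pseudocount of 1 or without the filter, 2 with the 2 CPM filter or the block, and 0 to 2 with single libraries left out. In DTR IP against input the number was 1 without the filter and 1 to 2 with single libraries left out. The log2 ratio of Bax to Bcl2 in input was 0.88 with the replicate block too, where the exact paired p was 0.12, the smallest that 4 pairs allow, and 0.81 to 0.95 with single libraries left out. Mdm2 to Trp53 in IP ranged from -0.25 to 0.094. Signs of values that did not pass turned for Trp53inp1 in IP (-0.031 with median centring, -0.091 with edgeR, -0.087 with DESeq2, -0.25 to 0.18 with libraries left out) and for the Pmaip1 difference of changes (0.22 with a pseudocount of 0.1, 1.18 with edgeR, 1.28 with DESeq2). Ranges with libraries left out that crossed 0 were, for the difference of changes, Ccng1 -0.16 to 0.092, Phlda3 -0.16 to 0.062 and Trp53inp1 -0.40 to 0.023. For control IP against input they were Mdm2 -0.15 to 0.0050, Gdf15 -0.14 to 0.018 and Trp53 -0.19 to 0.0061, and for DTR IP against input Bax -0.14 to 0.049, Phlda3 -0.019 to 0.21 and Gdf15 -0.058 to 0.24. For DTR against control they were Mcl1 in IP -0.10 to 0.048, Bak1 in IP -0.20 to 0.19 and Btg2 in input -0.20 to 0.15. The cause of these changes was not tested. Depth limits Pmaip1 and Gdf15, at 0 to 19 reads per control library. In a check chosen after seeing the data, the pooled read ratio of Pmaip1 in IP was 20.7 to 74.3 with single libraries left out. The replicate block changed no other call of the 10 genes than those given for Bcl2l11, Bbc3 and Ccng1.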
